A study of Rattus norvegicus with 4 samples.

Results

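Myelinating Schwann cells are described here as 578 cell barcodes of 1 rat single-cell RNA library, called library 4 after the number that ends its barcodes. They were chosen by marker counts: at least 500 detected genes, at most 20% mitochondrial UMIs (unique molecular identifiers, each standing for 1 captured transcript), at least 3 UMIs and at least 10 per 10000 UMIs of Prx, Cldn19, Mag and Gldn together, and at most 1 UMI of the cell cycle genes Mki67, Top2a and Cenpf together. They were 578 of the 8448 barcodes of library 4 that passed the gene and mitochondrial filters, a share of 6.84% (95% binomial interval 6.31% to 7.40%, Clopper-Pearson, counting error only). The whole series held 41444 barcodes, of which 33175 passed those filters. Because the members were chosen by measured values, every difference from other barcodes of library 4 is given as a description, with no test.

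The study profiled Sprague Dawley rats, a stock of laboratory rat, in 4 groups with 1 library each: sciatic nerve at 1 day, sciatic nerve at 8 weeks, dorsal root ganglion at 1 day and dorsal root ganglion at 8 weeks, with sex not determined. The libraries were made with the 10x Chromium 3' kit, and their counts stand in a single matrix. No label or file used here ties a barcode number to the sampled tissue or age, so that library 4 was assigned to no group and no comparison between tissues or ages was made. The labels also describe primary Schwann cells kept in DMEM with 10% fetal bovine serum without saying whether the sequenced cells had been cultured, and they do not give the number of animals behind a library.

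A myelinating Schwann cell wraps a single segment of axon in many turns of its own membrane, which compact into myelin. Compact myelin is built from a few abundant proteins and from cholesterol and galactolipids, while channels of cytoplasm, adherens junctions and gap junctions remain in the noncompact parts. The programme is known to depend on the transcription factors Sox10, Pou3f1, Pou3f2 and Egr2, and it goes along with lower levels of genes of immature, nonmyelinating and injury-activated Schwann cells.

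The promoter windows of 3 genes are shown because these genes, outside the rule, had some of the highest ratios of members over the other Schwann barcodes described below. The genes Crym, Drp2 and Slc36a2, also outside the rule, had higher ratios than Dusp15 and are not shown. S100a3 encodes a calcium-binding protein, Ibsp encodes bone sialoprotein and Dusp15 encodes a dual-specificity phosphatase. Each window runs from 250 bases before to 50 bases after the gene's start, as given by RefSeq for the build GRCr8, and differs in build from the counts (Rnor_6.0 per the submitters' processing notes). S100a3 lies at chr2:178384263-178384562 on the plus strand, Ibsp at chr14:5757193-5757492 on the minus strand and Dusp15 at chr3:161879201-161879500 on the minus strand. Capitals mark matches, on either strand, to the SOX letters ACAAAG or ACAATG or to the EGR letters GCGTGGG.
S100a3: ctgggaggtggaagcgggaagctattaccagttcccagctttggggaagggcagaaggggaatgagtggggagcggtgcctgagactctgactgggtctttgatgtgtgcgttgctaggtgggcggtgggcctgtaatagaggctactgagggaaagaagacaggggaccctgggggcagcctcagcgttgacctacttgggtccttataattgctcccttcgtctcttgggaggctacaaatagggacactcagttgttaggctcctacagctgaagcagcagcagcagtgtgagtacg
Ibsp: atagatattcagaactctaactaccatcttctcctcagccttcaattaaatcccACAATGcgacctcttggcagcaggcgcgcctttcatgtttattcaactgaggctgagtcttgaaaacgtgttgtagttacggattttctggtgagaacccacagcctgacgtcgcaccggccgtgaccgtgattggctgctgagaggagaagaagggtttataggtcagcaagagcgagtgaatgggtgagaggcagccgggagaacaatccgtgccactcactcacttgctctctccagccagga
Dusp15: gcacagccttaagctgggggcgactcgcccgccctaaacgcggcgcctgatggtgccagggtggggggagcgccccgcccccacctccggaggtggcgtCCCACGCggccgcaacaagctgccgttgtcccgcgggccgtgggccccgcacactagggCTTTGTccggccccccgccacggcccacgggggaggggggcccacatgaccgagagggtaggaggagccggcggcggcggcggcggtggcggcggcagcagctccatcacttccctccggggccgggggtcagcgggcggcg

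Of the 15 genes with the highest ratios, 11 had a window, in 12 windows in all. ACAAAG stood in 1 of the 12 windows (Dusp15) and in 18.8% of all 33469 windows of that length. ACAATG stood in 1 (Ibsp) and in 13.2% of all windows. GCGTGGG stood in 1 (Dusp15) and in 4.33% of all windows. A SOX match of either kind stood in 2 of the 12 windows and in 29.1% of all windows. The genes with a match, Ibsp and Dusp15, are both among those printed above. The absence of a match in the S100a3 window says only that these letters are not in these 300 bases.

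The 4 libraries held between 74425958 and 97572003 UMIs, and library 4 held 82252902 UMIs in 10559 barcodes. Depth differed between the sides that were compared. The members held 5757464 UMIs in all, with a median of 9586.5 UMIs and 2789.5 genes per barcode, and mitochondrial genes took a median of 11.6% of them. The main comparison was with 4785 other Schwann-lineage barcodes of library 4, which were filtered nonmembers with Sox10, Erbb3, Cdh19 and S100b UMIs and few fibroblast UMIs (Dcn, Pdgfra, Lum). Those barcodes held 36320751 UMIs, with a median of 6936 UMIs and 2332 genes and a mitochondrial median of 11.5%. The 1008 fibroblast barcodes of library 4 had a median of 12570 UMIs and are set beside the members as barcodes of a cell type that should lack Schwann cell RNA. They were chosen to hold at most 1 UMI of Sox10, Erbb3, Cdh19 and S100b together, so their level of those 4 genes is fixed by the choice and that of other Schwann cell genes may be lowered by it. Doublets, barcodes with RNA of more than 1 cell, were neither called nor removed. Of the barcode sequences of library 4, 105 also occurred in another library, 4 of them among the members.

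The 4 marker genes of the rule have known places in the sheath: Prx (periaxin) anchors the outer membrane to the basal lamina, Cldn19 is a tight junction protein, Mag faces the axon and Gldn (gliomedin) gathers sodium channels at nodes. Members carried between 10.0 and 84.4 marker UMIs per 10000, with a median of 23.8. All 4 genes were detected in 257 members, 3 in 192, 2 in 127 and 1 in 2. Prx was detected in 99.7% of members and Cldn19 in 98.8%, while Mag was detected in 70.9% and Gldn in 52.4%. In CPM, the UMIs of a gene per 1000000 summed UMIs of all genes, Prx had 1138 CPM in members, 83.3 CPM in other Schwann-lineage barcodes and 8.77 CPM in fibroblast barcodes. Cldn19 had 1149 CPM in members and 51.3 CPM in other Schwann-lineage barcodes, Mag had 367 CPM in members and 32.4 CPM in other Schwann-lineage barcodes, and Gldn had 225 CPM in members and 9.09 CPM in other Schwann-lineage barcodes. These differences follow from the rule. Just inside the threshold, 64 members had 10 to 12 marker UMIs per 10000, with a median of 11.1. Just outside it, 104 barcodes had 8 to 10 per 10000, with a median of 8.75. A further 18 barcodes had enough marker UMIs per 10000 but only 2 in number. Of the members, 44 held 1 UMI of Mki67, Top2a or Cenpf, and 16 barcodes passed the marker thresholds but held more than 1 and were left out.

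Genes of compact myelin, none of them used by the rule, were mostly higher in the members. The rule chose members by other myelin genes in the same library, so this is a description and no support for the label. Pmp22, a tetraspan membrane protein, had 16167 CPM in members, 4933 CPM in other Schwann-lineage barcodes and 911 CPM in fibroblast barcodes. The log2 ratio of members over other Schwann-lineage barcodes was 1.71 for Pmp22 (counting interval 1.70 to 1.72). Mbp, which seals the cytoplasmic faces, had 6097 CPM in members and 1690 CPM in other Schwann-lineage barcodes, a log2 ratio of 1.85. Pmp2, a fatty acid binding protein of the cytoplasmic face, had 2774 CPM in members and 973 CPM in other Schwann-lineage barcodes, a log2 ratio of 1.51. The other Schwann-lineage barcodes were thus not without myelin RNA: a Mbp UMI was present in 100% of members and in 99.5% of them, against 40.4% of fibroblast barcodes.

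**Figure D1:**
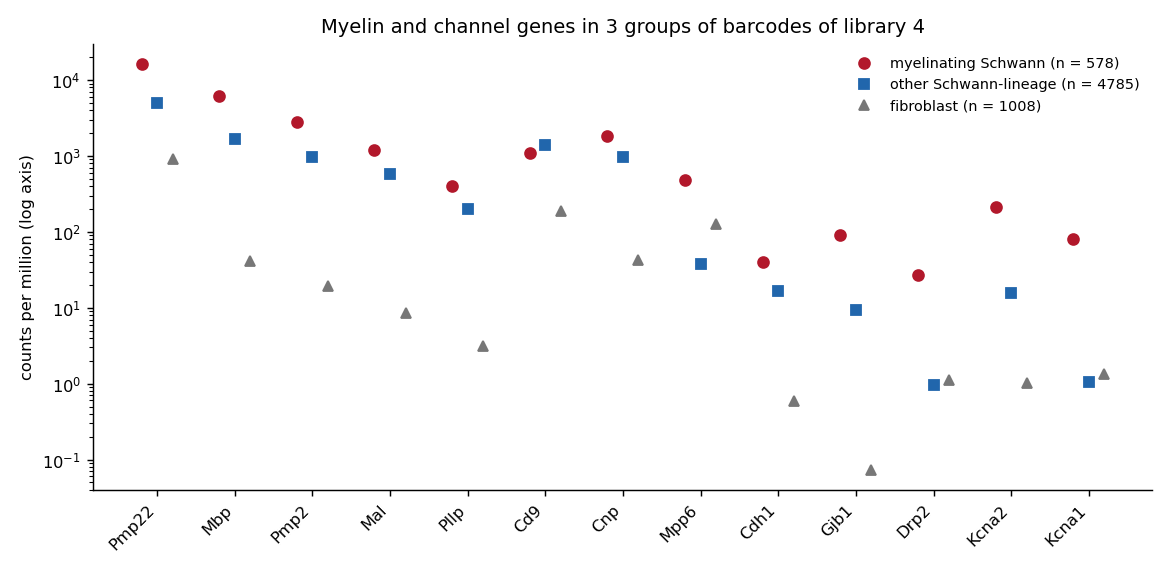
CPM (log axis) of 13 myelin and channel genes in myelinating Schwann (circles), other Schwann-lineage (squares) and fibroblast (triangles) barcodes of library 4, summed over each group. Pmp22, Mbp and Pmp2 stood above the other Schwann-lineage level in members, Cd9 stood below it, and Kcna1 and Drp2 were near 1 CPM outside the members.

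Other membrane proteins of the sheath varied in their ratios. Mal, a raft protein, had 1184 CPM in members and 581 CPM in other Schwann-lineage barcodes. Pllp (plasmolipin) had 401 CPM in members and 201 CPM in other Schwann-lineage barcodes, just short of 2-fold. Ncmap, a small noncompact myelin protein, had 23 UMIs in members and 1 UMI in other Schwann-lineage barcodes, with a counting interval for the log2 ratio of 4.56 to 12.55. Other surface proteins went the other way: the tetraspanin Cd9 had 1081 CPM in members and 1402 CPM in other Schwann-lineage barcodes, and Cd59, an inhibitor of complement, had 78.5 CPM in members and 194 CPM in other Schwann-lineage barcodes. Mobp, a myelin protein of oligodendrocytes, had 1 UMI in members and 4 UMIs in other Schwann-lineage barcodes. With sides of unlike total, these few UMIs give no direction.

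Of 11956 genes with at least 20 summed UMIs on 1 side, 428 (3.58%) were at least 2-fold higher in members than in other Schwann-lineage barcodes and 1454 (12.2%) were at least 2-fold lower, and the median log2 ratio was -0.09. In the list of compact myelin proteins 6 of 11 genes with enough UMIs were at least 2-fold higher and 1 was at least 2-fold lower, with a median of 1.03. That list is drawn broadly: its higher genes include the noncompact myelin gene Ncmap, and its lower gene is Cd59. In the list of sheath and noncompact myelin proteins 6 of 13 genes outside the rule were higher and 2 were lower, with a median of 0.92. Nothing is read from these counts or from those of the lists below, since the rule chose members within the same contrast.

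Proteins of the noncompact sheath had some of the highest ratios. Gjb1, the gap junction protein connexin 32, had 91.7 CPM in members, 9.36 CPM in other Schwann-lineage barcodes and 0.0737 CPM in fibroblast barcodes. Drp2, a dystrophin relative that joins periaxin to dystroglycan at the outer membrane, had 27.1 CPM in members and 0.964 CPM in other Schwann-lineage barcodes, a log2 ratio of 4.81 (4.28 to 5.39). Mpp6, a scaffold protein of the membrane-associated guanylate kinase family, had 488 CPM in members and 38.0 CPM in other Schwann-lineage barcodes. Its fibroblast level was 128 CPM, above that of the other Schwann-lineage barcodes. The related polarity scaffold Mpp5 had 137 CPM in members and 54.0 CPM in other Schwann-lineage barcodes. Cdh1 (E-cadherin), the adherens junction protein that holds the turns of 1 cell together, had 40.1 CPM in members and 16.4 CPM in other Schwann-lineage barcodes.

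Nfasc, whose glial form sits at paranodes, was also higher in members, with 49 UMIs in members and 23 UMIs in other Schwann-lineage barcodes and a log2 ratio of 3.75 (3.01 to 4.53). Other genes of the list differed by less than 2-fold or were lower in members. Cnp, an enzyme that keeps cytoplasmic channels open, had 1835 CPM in members and 968 CPM in other Schwann-lineage barcodes. The connexin Gjc3 had 13.4 CPM in members and 8.89 CPM in other Schwann-lineage barcodes, and the junction protein Tjp1 had 98.3 CPM in members and 69.8 CPM in other Schwann-lineage barcodes. Cadm4, the glial partner in the contact with axons, had 166 CPM in members and 199 CPM in other Schwann-lineage barcodes. The deacetylase Sirt2 had 98.1 CPM in members and 147 CPM in other Schwann-lineage barcodes. Ank3 (ankyrin G), a membrane anchor, had 78.2 CPM in members and 249 CPM in other Schwann-lineage barcodes. Cldn5, best known as a tight junction protein of endothelium, had 2 UMIs in members against 104 UMIs in other Schwann-lineage barcodes, with a counting interval for the log2 ratio of -6.11 to -1.15. Crb3 had 1 UMI in members and 3 UMIs in other Schwann-lineage barcodes. These are too few to give a direction, as the sides differ in total UMIs.

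Channels and transporters differed in both directions. Kcna1, a voltage-gated potassium channel subunit best known from the axon beside the node, had 79.4 CPM in members, 1.05 CPM in other Schwann-lineage barcodes and 1.33 CPM in fibroblast barcodes. Its log2 ratio of 6.25 (5.77 to 6.76) was the highest among genes with at least 100 UMIs on the higher side. Kcna2, a subunit of the same channel family, had 213 CPM in members and 15.6 CPM in other Schwann-lineage barcodes. Slc12a2, a sodium, potassium and chloride cotransporter, had 367 CPM in members and 67.0 CPM in other Schwann-lineage barcodes. Kcnk1, a 2-pore potassium channel, had 14.9 CPM in members and 3.03 CPM in other Schwann-lineage barcodes. Scn7a, a sodium channel relative, went the other way, with 36.3 CPM in members and 483 CPM in other Schwann-lineage barcodes, a log2 ratio of -3.73 (-3.94 to -3.54). In this list 4 of 12 genes were at least 2-fold higher, 3 were lower and the median was 0.55. Of all genes, 3.58% were higher and 12.2% lower.

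After thinning each barcode to 3000 UMIs, which left 558 members, 4651 other Schwann-lineage and 924 fibroblast barcodes, a Kcna1 UMI was present in 16.0% of members (13.01% to 19.3%), 0.280% of other Schwann-lineage barcodes and 0.541% of fibroblast barcodes. The unthinned shares were 35.3%, 0.648% and 1.59% in that order. The share in other Schwann-lineage barcodes was thus no higher than in fibroblast barcodes. The thinned intervals overlapped (0.149% to 0.477% and 0.176% to 1.26%), and the source of these UMIs was not tested. A Kcna2 UMI was present in 39.6% of thinned members, 4.04% of other Schwann-lineage barcodes and 0 of the 924 fibroblast barcodes (exact upper bound 0.398%).

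Genes outside the lists with the highest ratios came from varied families. Crym, a thyroid hormone binding protein, had 37.7 CPM in members and 0.661 CPM in other Schwann-lineage barcodes, a log2 ratio of 5.83 (5.22 to 6.51). S100a3, whose promoter is printed above, had 180 CPM in members and 4.24 CPM in other Schwann-lineage barcodes, a log2 ratio of 5.41. Ibsp had 102 CPM in members and 4.16 CPM in other Schwann-lineage barcodes. Ibsp was concentrated in few barcodes: an Ibsp UMI was present in 14.0% of thinned members, and the highest member held 20 of 3000 UMIs. Slc36a2, an amino acid transporter, had 57.1 CPM in members and 2.45 CPM in other Schwann-lineage barcodes. Dusp15 had 143 CPM in members and 6.75 CPM in other Schwann-lineage barcodes. Mrap, an accessory protein of a melanocortin receptor, had 162 CPM in members and 7.82 CPM in other Schwann-lineage barcodes. Emid1, a secreted protein with an EMI domain, had 483 CPM in members and 35.1 CPM in other Schwann-lineage barcodes. Cnmd, Il16, Nipal1 and Mt3 completed the highest 15, with log2 ratios of 4.29, 3.99, 3.94 and 3.84. Csrp2, a LIM domain protein, had a lower log2 ratio of 2.33 but a high level, 5266 CPM in members against 1047 CPM in other Schwann-lineage barcodes and 355 CPM in fibroblast barcodes.

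The lowest ratios outside the lists rested on very few UMIs in members. Mrgprf, an orphan receptor, had 5 UMIs in members and 940 UMIs in other Schwann-lineage barcodes, a log2 ratio of -4.90 (-6.52 to -3.67). Gbp2, an interferon-induced guanylate binding protein, had 0 UMIs in members against 351, at least 18.5-fold lower with a floor of 3 UMIs per side. Gbp7 of the same family had 1 UMI in members against 415, with a counting interval for the log2 ratio of -11.35 to -3.55. Clec2g, Gcnt2, Cxcl2, Lyz2, Fcer1g, Myof and Loxl2 completed the lowest 10. Lyz2 and Fcer1g are macrophage genes, and the summed level of 6 macrophage markers was 13.2 CPM in members and 85.6 CPM in other Schwann-lineage barcodes, and the part of macrophage RNA in these ratios was not tested. Lgals3, a galectin with 45.5 CPM in members and 626 CPM in other Schwann-lineage barcodes, was well measured on both sides, with a log2 ratio of -3.78.

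Lipid synthesis genes leaned toward the members. In the list for fatty acid and sphingolipid synthesis 6 of 17 genes were at least 2-fold higher in members, 0 were lower and the median log2 ratio was 0.66. The shares over all genes were 3.58% higher and 12.2% lower. Ugt8, which makes galactosylceramide, had 426 CPM in members, 96.4 CPM in other Schwann-lineage barcodes and 3.17 CPM in fibroblast barcodes. Fa2h, which hydroxylates the fatty acids of myelin galactolipids, had 188 CPM in members and 46.5 CPM in other Schwann-lineage barcodes, a log2 ratio of 2.01. Gal3st1, which turns galactosylceramide into sulfatide, had 93.1 CPM in members and 45.3 CPM in other Schwann-lineage barcodes. Fasn (fatty acid synthase) had 96.6 CPM in members and 36.9 CPM in other Schwann-lineage barcodes, and the elongase Elovl1 had 681 CPM in members and 311 CPM in other Schwann-lineage barcodes. Acly, which supplies acetyl-CoA, had 127 CPM in members and 198 CPM in other Schwann-lineage barcodes.

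For cholesterol synthesis 3 of 16 genes were at least 2-fold higher (3.58% of all genes), 0 were lower (12.2% of all genes) and the median was 0.52. The mevalonate decarboxylase gene Mvd had 31.3 CPM in members and 9.31 CPM in other Schwann-lineage barcodes, a log2 ratio of 1.75. The dehydrogenase gene Nsdhl had 38.0 CPM in members and 16.5 CPM in other Schwann-lineage barcodes. Fdps, which makes farnesyl diphosphate, had 357 CPM in members and 176 CPM in other Schwann-lineage barcodes. The isomerase Idi1 and the epoxidase Sqle had log2 ratios of -0.04 and 0.00.

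**Figure D2:**
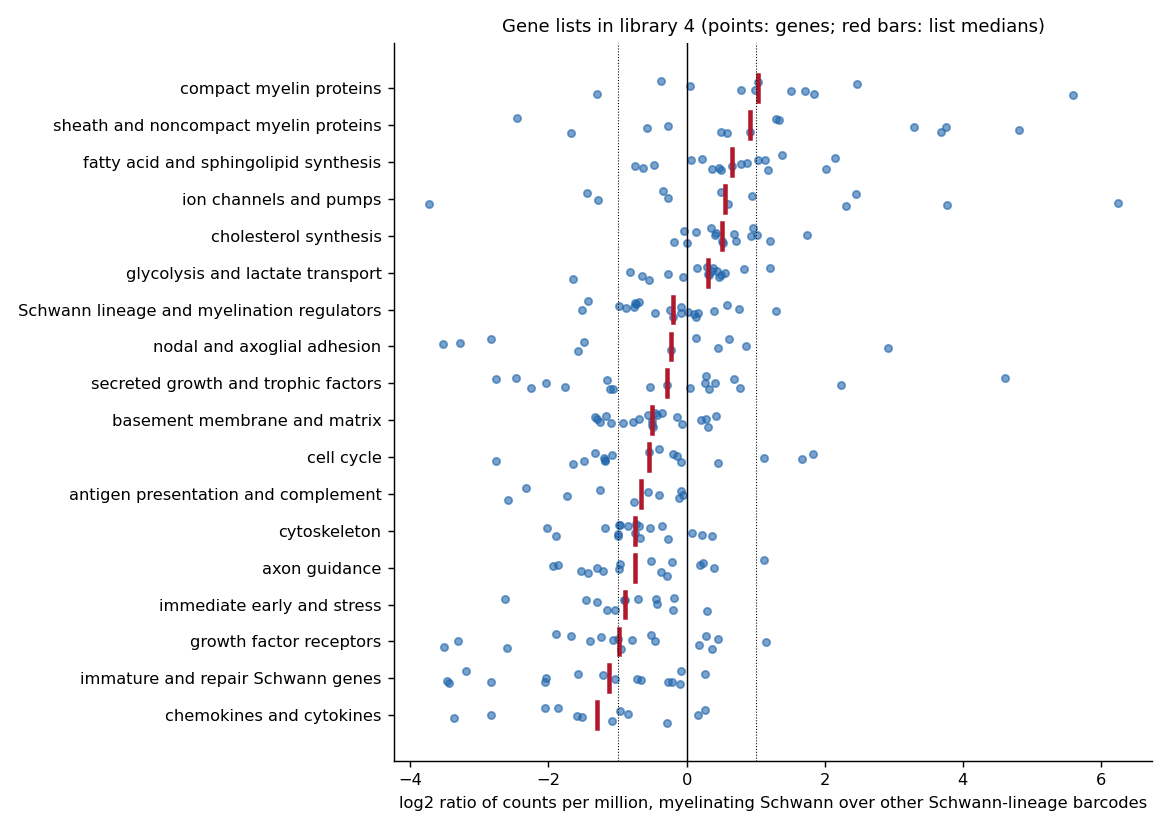
Log2 ratio of CPM in myelinating Schwann over other Schwann-lineage barcodes of library 4 for 18 gene lists, without genes used by the rule (points: genes with at least 20 UMIs on 1 side; red bars: list medians; dotted lines: 2-fold). Compact myelin proteins had the highest median, 1.03, and chemokines and cytokines the lowest, -1.30.

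Most regulators of the lineage differed by less than 2-fold, with 1 of 21 higher and 2 lower, beside 3.58% and 12.2% of all genes. Sox10 had 163 CPM in members and 160 CPM in other Schwann-lineage barcodes, and the neuregulin receptor Erbb3 had 360 CPM in members and 381 CPM in other Schwann-lineage barcodes. The lineage marker S100b, a calcium-binding protein, had 1142 CPM in members and 1084 CPM in other Schwann-lineage barcodes. Another marker, the cadherin Cdh19, was lower, with 55.2 CPM in members and 176 CPM in other Schwann-lineage barcodes, a log2 ratio of -1.67. All 4 genes were used to choose the other Schwann-lineage barcodes, so their levels on that side are set by the choice. Egr2, a transcription factor of myelination, had 230 CPM in members, 243 CPM in other Schwann-lineage barcodes and 154 CPM in fibroblast barcodes. Pou3f2 (Brn2) was the only regulator of 21 at least 2-fold higher, with 62.4 CPM in members and 25.4 CPM in other Schwann-lineage barcodes, a log2 ratio of 1.29 (1.11 to 1.47). Nab2, a partner of Egr proteins, had 107 CPM in members and 63.5 CPM in other Schwann-lineage barcodes. Egr1, an early response gene, had 604 CPM in members and 1624 CPM in other Schwann-lineage barcodes. Nfatc4 was the other gene past 2-fold in the lower direction, on 2 UMIs in members. The median of the list was -0.19.

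Genes of immature and injury-activated Schwann cells were lower in part. Of 16 such genes 9 were at least 2-fold lower in members (12.2% of all genes), 0 were higher (3.58% of all genes) and the median was -1.13. Ngfr, the low-affinity neurotrophin receptor, had 9.38 CPM in members and 104 CPM in other Schwann-lineage barcodes, a log2 ratio of -3.46 (-3.88 to -3.08). The filament gene Gfap had 1.74 CPM in members and 18.9 CPM in other Schwann-lineage barcodes. Cdh2 (N-cadherin) had 11.98 CPM in members and 110 CPM in other Schwann-lineage barcodes. The adhesion gene L1cam had 15.3 CPM in members and 109 CPM in other Schwann-lineage barcodes, and its relative Ncam1 had 62.9 CPM in members and 186 CPM in other Schwann-lineage barcodes. Sox2, a factor of immature cells that holds back myelination, had 738 CPM in members and 785 CPM in other Schwann-lineage barcodes, a log2 ratio of -0.09. Jun, a factor of the injury response, had 1816 CPM in members and 2883 CPM in other Schwann-lineage barcodes. Both Sox2 and Jun thus remained well above 0 in members.

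Growth factor receptors were lower for 8 of 18 genes and higher for 0, with a median of -0.97, beside 12.2% and 3.58% of all genes. Ntrk2, a neurotrophin receptor, had 8.16 CPM in members and 92.7 CPM in other Schwann-lineage barcodes. The glial cell line-derived factor coreceptor genes Gfra2 and Gfra3 had 3.47 and 13.7 CPM in members and 34.6 and 83.2 CPM in other Schwann-lineage barcodes. The endothelin receptor Ednrb had 419 CPM in members and 1342 CPM in other Schwann-lineage barcodes, a log2 ratio of -1.68. Pdgfra, a receptor of fibroblasts, had 13 UMIs in members and 37 UMIs in other Schwann-lineage barcodes, a log2 ratio of 1.15. The ratio was -0.65 without the 152 members holding markers of another cell class. Pdgfra is among the markers that define those members, so this fall follows in part from the choice. Pdgfra was also used to limit fibroblast RNA in the other Schwann-lineage barcodes, so its level there is limited by the choice.

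Secreted factors went in both directions, 2 of 19 higher and 8 lower, with a median of -0.28, beside 3.58% and 12.2% of all genes. Fgf7 had 6.08 CPM in members and 0.248 CPM in other Schwann-lineage barcodes, a log2 ratio of 4.62 (3.53 to 5.86), with 4.42 CPM in fibroblast barcodes. Fgf1 had 26.9 CPM in members and 5.73 CPM in other Schwann-lineage barcodes. Gdnf, a survival factor for neurons, had 1.91 CPM in members and 13.0 CPM in other Schwann-lineage barcodes. Ptn (pleiotrophin) had 211 CPM in members and 456 CPM in other Schwann-lineage barcodes. The ligand Dhh, a signal from Schwann cells to the perineurium, had 207 CPM in members and 156 CPM in other Schwann-lineage barcodes.

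Nodal and axoglial adhesion genes were split as well, 1 of 11 higher and 5 lower, with a median of -0.23, beside 3.58% and 12.2% of all genes. Nrcam, an adhesion protein of the node, had 62.0 CPM in members and 8.20 CPM in other Schwann-lineage barcodes, a log2 ratio of 2.92. Cadm3 and Cadm2, adhesion proteins of the nectin-like family, had 15.6 and 1.74 CPM in members and 152 and 19.99 CPM in other Schwann-lineage barcodes. Lgi4, a secreted protein needed for myelination in mouse nerve, had 127 CPM in members and 355 CPM in other Schwann-lineage barcodes.

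Cell cycle inhibitors differed among themselves. Cdkn1b (p27) had 876 CPM in members and 247 CPM in other Schwann-lineage barcodes, a log2 ratio of 1.82 (1.77 to 1.87). Cdkn1c (p57) had 668 CPM in members, 307 CPM in other Schwann-lineage barcodes and 1308 CPM in fibroblast barcodes. A related inhibitor, Cdkn1a (p21), was lower, with 28.1 CPM in members and 64.5 CPM in other Schwann-lineage barcodes, a log2 ratio of -1.20. Ccnd2, a cyclin, had 40.5 CPM in members and 12.7 CPM in other Schwann-lineage barcodes. Outside the 3 cell cycle genes of the rule, Cdkn1b, Cdkn1c and Ccnd2 were the 3 of 17 genes at least 2-fold higher, and 8 were lower. The rule limits cell cycle UMIs on both sides, so low levels of replication genes are no finding.

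The remaining lists are given by their counts past 2-fold, beside the 3.58% of all genes that were higher and the 12.2% that were lower, and nothing is read from these counts. Of the basement membrane and matrix genes 0 of 21 were higher and 5 lower (median -0.50), among them Itgb4, a laminin receptor subunit with 91.2 CPM in members and 229 CPM in other Schwann-lineage barcodes. Of the cytoskeletal genes 0 of 18 were higher and 3 lower (median -0.74), and the filament gene Vim had 14212 CPM in members and 23708 CPM in other Schwann-lineage barcodes. For axon guidance the median was -0.74, with 1 of 16 higher and 6 lower. Of the immediate early and stress genes 0 of 13 were higher and 5 lower (median -0.89), and Atf3 had 1079 CPM in members and 2640 CPM in other Schwann-lineage barcodes. For antigen presentation and complement the median was -0.67, with 0 of 10 higher and 4 lower. Of the chemokines and cytokines 0 of 12 were higher and 7 lower (median -1.30), and Ccl2 had 13.7 CPM in members, 98.2 CPM in other Schwann-lineage barcodes and 554 CPM in fibroblast barcodes. Glycolysis and lactate transport had a median of 0.31, with Ldhb, a lactate dehydrogenase subunit, the 1 of 18 genes at least 2-fold higher, at 494 CPM in members and 214 CPM in other Schwann-lineage barcodes.

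Set against all 7870 other filtered barcodes of library 4, 457 of 13702 genes (3.34%) were at least 2-fold higher in members and 2734 (20%) were at least 2-fold lower, with a median log2 ratio of -0.12. Kcna1, S100a3, Slc36a2, Cldn19 and Ibsp led the higher genes, with log2 ratios of 6.03, 5.49, 5.11, 5.05 and 4.97. The lowest genes were Cenpf, which the rule used, Cxcl2, the endothelial cadherin Cdh5 and the macrophage gene Fcer1g, at -7.05, -6.49, -6.36 and -6.27. The other filtered barcodes also include cells with more than 1 cell cycle UMI and 50 barcodes picked by endothelial markers. Macrophage markers summed to 13.2 CPM in members and 365 CPM in all other filtered barcodes, and the part of such cells in these ratios was not tested.

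Markers of other cell types were present at varied levels in members. The 5 endothelial markers found, Cldn5, Egfl7 and Emcn among them, summed to 1.91 CPM in members and 8.31 CPM in other Schwann-lineage barcodes, with none at 0. The 5 mural markers summed to 82.8 CPM in members and 157 CPM in other Schwann-lineage barcodes. The 5 neuron markers summed to more in members, 50.7 CPM against 35.5 CPM in other Schwann-lineage barcodes. Of these, the neurofilament gene Nefl had 46.2 CPM in members and 18.9 CPM in other Schwann-lineage barcodes, while Snap25 was at 0 UMIs in members. The 3 cartilage markers summed to 65.8 CPM in members and 35.9 CPM in other Schwann-lineage barcodes, with the collagen gene Col2a1 the 1 of the 3 detected in members. No member held at least 3 UMIs and 10 per 10000 of the endothelial, macrophage, neuron or mural defining markers. These are smaller sets, with Snap25, Prph and Stmn2 for neurons and Rgs5, Kcnj8 and Myh11 for mural cells. On the lists of 5 markers summed above, 2 members passed for neurons and 1 for mural cells. For fibroblasts (Dcn, Pdgfra and Lum) 3 members passed the same thresholds. The summed level of these 3 genes was 61.1 CPM in members, 25.8 CPM in other Schwann-lineage barcodes and 5136 CPM in fibroblast barcodes. The other Schwann-lineage barcodes were chosen to hold few UMIs of these 3 genes and the members were not. The level on that side is thus limited by the choice. The wider list of 6 fibroblast markers, which includes the collagen genes Col1a1 and Col3a1 and Postn, summed to 4440 CPM in members and 7940 CPM in other Schwann-lineage barcodes, and all 6 were detected on both sides. On this wider list 561 members (97.1%) and 99.7% of other Schwann-lineage barcodes passed the thresholds. For red blood cells 149 members (25.8%) passed the thresholds, as did 46.7% of other Schwann-lineage barcodes. Haemoglobin took 0.0755% of UMIs in members, 0.565% in other Schwann-lineage barcodes and 49.2% in barcodes under 500 genes. The part of these RNAs in the ratios above was not tested beyond leaving out 152 members by the defining markers. Of these, 149 passed for red blood cells and 3 for fibroblasts. No member was left out for passing the wider list of 6 fibroblast markers.

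Members varied widely among themselves. At 3000 UMIs per barcode Pmp22 had a median of 35 UMIs in members, with 12 at the 5th percentile, 115 at the 95th and 225 at most, against a median of 14 in other Schwann-lineage barcodes. Its variance over barcodes was 23.0 times its mean. For Mbp the variance was 6.67 times the mean and for Pmp2 it was 5.60 times the mean. Sox2 had a median of 2 UMIs on both sides. A Sox10 UMI was present in 37.8% of thinned members, 36.0% of other Schwann-lineage barcodes and 0.649% of fibroblast barcodes, where the choice limits it.

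**Figure D3:**
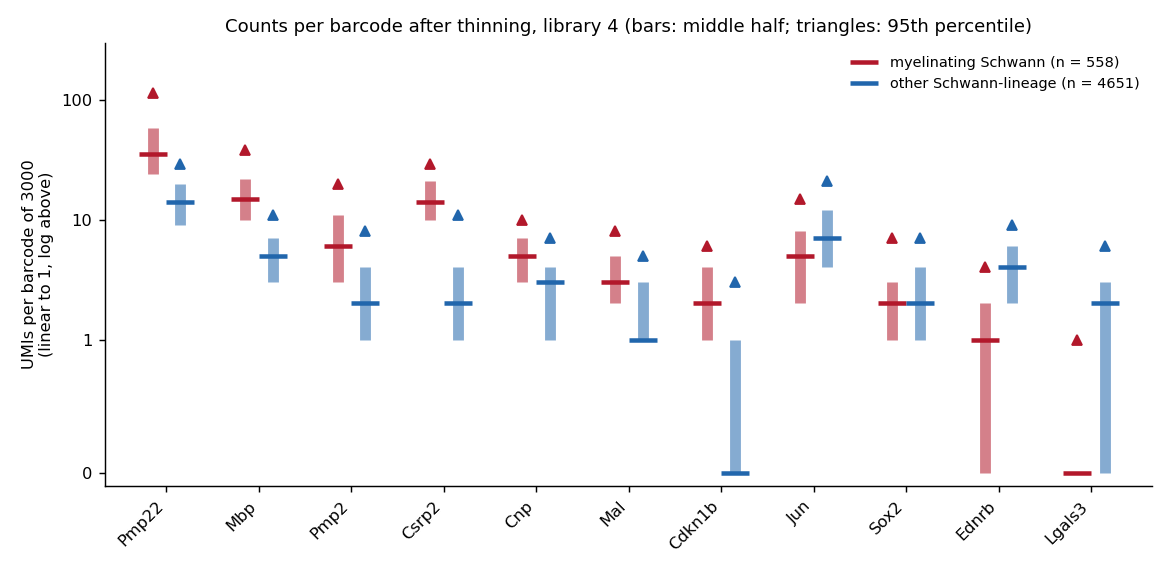
UMIs per barcode after thinning to 3000 UMIs (axis linear up to 1 and logarithmic above) for 11 genes in myelinating Schwann (red) and other Schwann-lineage (blue) barcodes of library 4, with medians as dashes, bars from the 25th to the 75th percentile and triangles at the 95th percentile. The Pmp22 median was 35 in members and 14 in other Schwann-lineage barcodes, and the Lgals3 median was 0 in members and 2 in other Schwann-lineage barcodes.

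To describe this spread, the 558 thinned members were put in 3 equal bins of 186 by their count of Prx, Cldn19, Mag and Gldn, which averaged 3.61, 7.15 and 13.9 UMIs from the low to the high bin. Their median depth before thinning was 8815, 9206 and 11180 UMIs, and mitochondrial genes took 11.7%, 12.3% and 11.4% of UMIs. Since the bins are made from the markers of the rule, levels across them are a description. Pmp22 had 8747 CPM in the low bin, 13215 CPM in the middle bin and 23679 CPM in the high bin. The compact myelin list summed to 23815, 36358 and 68319 CPM, and the ion channel list to 934, 1041 and 1599 CPM. Cholesterol synthesis genes summed to 2091, 2197 and 4113 CPM, so the low and middle bins were close and the high bin stood apart.

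Among genes with at least 50 thinned UMIs in the low or the high bin, those outside the rule with the steepest increase from the low to the high bin were Kcna1, S100a3, Fxyd6 and Mrap. Kcna1 had 21.5, 57.3 and 147 CPM from the low to the high bin. S100a3 had 48.4, 111 and 281 CPM. Fxyd6, a regulator of the sodium pump, had 73.5, 140 and 392 CPM. Ugt8 had 219, 317 and 588 CPM. Drp2, which did not reach the minimum of 50 UMIs and rests on few counts, had 8.96, 7.17 and 60.9 CPM. Other genes under that minimum rose more steeply, also on few counts. Among them, Crym had 3.58, 12.5 and 78.9 CPM, and Mt3 had 5.38, 32.3 and 75.3 CPM.

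Other genes were highest in the low bin. Cck, a peptide hormone gene, had 174, 147 and 32.3 CPM from the low to the high bin, yet over all members it was higher (107 CPM) than in other Schwann-lineage barcodes (36.7 CPM). Htra1, a secreted protease, had 1903, 1468 and 509 CPM. Postn (periostin) had 971, 611 and 296 CPM, and the small GTPase Rnd3 had 1048, 781 and 358 CPM. Ncam1 had 122, 68.1 and 37.6 CPM. Ednrb had 634, 435 and 253 CPM. Sox2, with nearly the same level in all members as in other Schwann-lineage barcodes, had 885, 801 and 518 CPM, and Jun had 2280, 1891 and 1435 CPM. The list of immature and injury-activated genes summed to 4862, 4161 and 3256 CPM and that of growth factor receptors to 1884, 1511 and 1032 CPM.

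**Figure D4:**
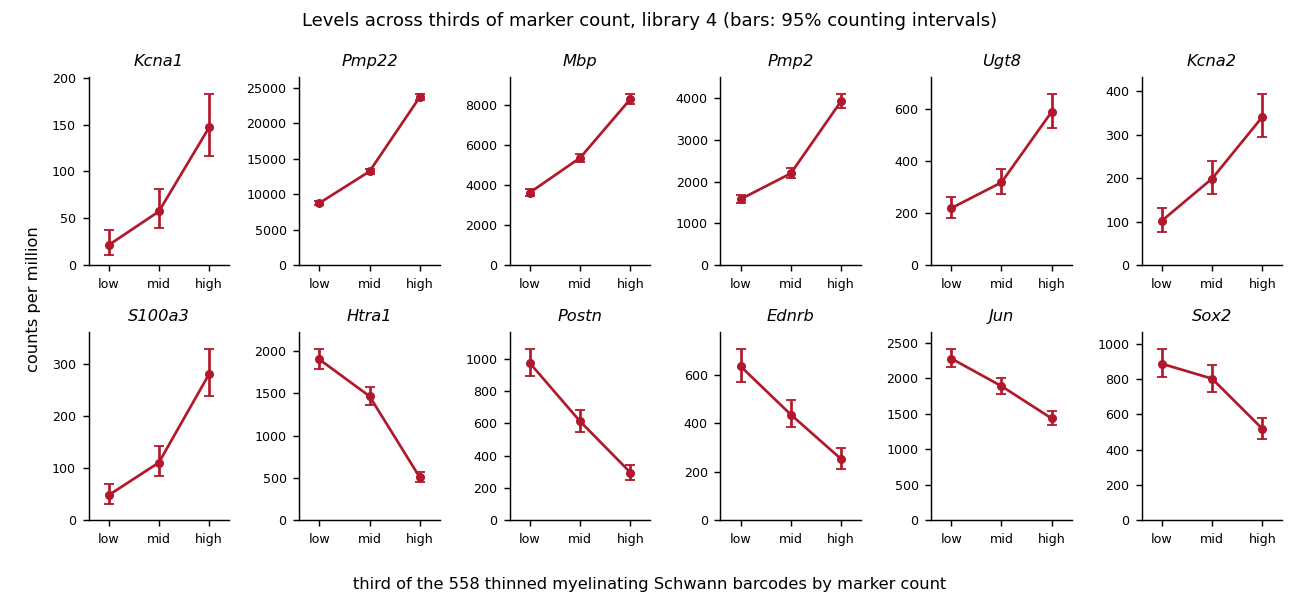
CPM of 12 genes in the low, middle and high bins of the 558 thinned myelinating Schwann barcodes of library 4, 186 barcodes each, binned by their count of Prx, Cldn19, Mag and Gldn (bars: exact 95% counting intervals, axes from 0). Pmp22 had 8747 CPM in the low bin and 23679 CPM in the high bin, while Htra1 had 1903 CPM in the low bin and 509 CPM in the high bin.

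The same rule picked 64 barcodes in library 1 (0.651% of its filtered barcodes), 206 in library 2 (2.44%) and 221 in library 3 (3.41%), fewer than in library 4. Their median depths were 3051, 3225 and 5068 UMIs, below the 9586.5 UMIs of library 4. The libraries are single samples of different groups and are set side by side without a test. Other RNA came with these barcodes: Snap25, Prph, Stmn2 and Tubb3, genes of neurons, summed to 4.52 CPM in library 4 and to 50.1, 3322 and 1272 CPM in libraries 1, 2 and 3. Dcn, Pdgfra and Lum summed to 61.1 CPM in library 4 and to 3385, 98.3 and 66.6 CPM in libraries 1, 2 and 3. Macrophage markers summed to 13.2 CPM in library 4 and to 469, 200 and 9.39 CPM in libraries 1, 2 and 3. Neutrophil markers summed to 3.47 CPM in library 4 and to 819, 0 and 11.1 CPM in libraries 1, 2 and 3. The part of these RNAs in the differences below, that of Cd74 among them, was not tested.

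Compact myelin genes as a list summed to 46614 CPM in library 4, and to 98465, 125119 and 75836 CPM in libraries 1, 2 and 3, with library 4 the lowest. Pmp22 had 16167 CPM in library 4, and 24939, 30481 and 23780 CPM in libraries 1, 2 and 3. Mbp differed less, with 6097 CPM in library 4, and 8218, 7985 and 8634 CPM in libraries 1, 2 and 3. Pmp2 had 2774 CPM in library 4, and 31.9, 460 and 2395 CPM in libraries 1, 2 and 3. For Pmp2, libraries 4 and 3 lay close and library 1 held only 7 UMIs.

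The list of sheath and noncompact myelin proteins, which includes the 4 genes of the rule, summed to 5960 CPM in library 4, and to 6416, 6152 and 6521 CPM in libraries 1, 2 and 3. The following 5 genes, picked after their values were seen, were lower in libraries 4 and 3 than in libraries 1 and 2. Drp2 had 27.1 CPM in library 4, and 319, 212 and 26.5 CPM in libraries 1, 2 and 3. Cd9 had 1081 CPM in library 4, and 7403, 8513 and 1635 CPM in libraries 1, 2 and 3. Cntf, a trophic factor of Schwann cells, had 11.6 CPM in library 4, and 300, 341 and 13.7 CPM in libraries 1, 2 and 3. Kcnk1 had 14.9 CPM in library 4, and 241, 216 and 44.4 CPM in libraries 1, 2 and 3. Ncmap had 3.99 CPM in library 4, and 36.4, 66.4 and 4.27 CPM in libraries 1, 2 and 3.

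Another 4 genes picked in the same way were higher in libraries 4 and 3 than in libraries 1 and 2. Csrp2 had 5266 CPM in library 4, and 814, 157 and 6043 CPM in libraries 1, 2 and 3. Cdkn1c had 668 CPM in library 4, and 150, 53.6 and 721 CPM in libraries 1, 2 and 3. Ednrb had 419 CPM in library 4, and 18.2, 12.8 and 187 CPM in libraries 1, 2 and 3. The substrate protein gene Marcks had 1897 CPM in library 4, and 450, 236 and 1286 CPM in libraries 1, 2 and 3. In the other direction, Cd74, an antigen presentation gene, had 3 UMIs in library 4 (0.521 CPM), and 896, 277 and 0 CPM in libraries 1, 2 and 3. Over 2064 genes with at least 100 CPM, library 3 was the nearest of the 3 to library 4 for 1229 genes (59.5%), library 1 for 484 and library 2 for 351. The barcodes picked in libraries 1, 2 and 3 held 219774, 783297 and 1170903 summed UMIs. Counting error is thus largest for library 1, and its part in this count was not tested.

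**Figure D5:**
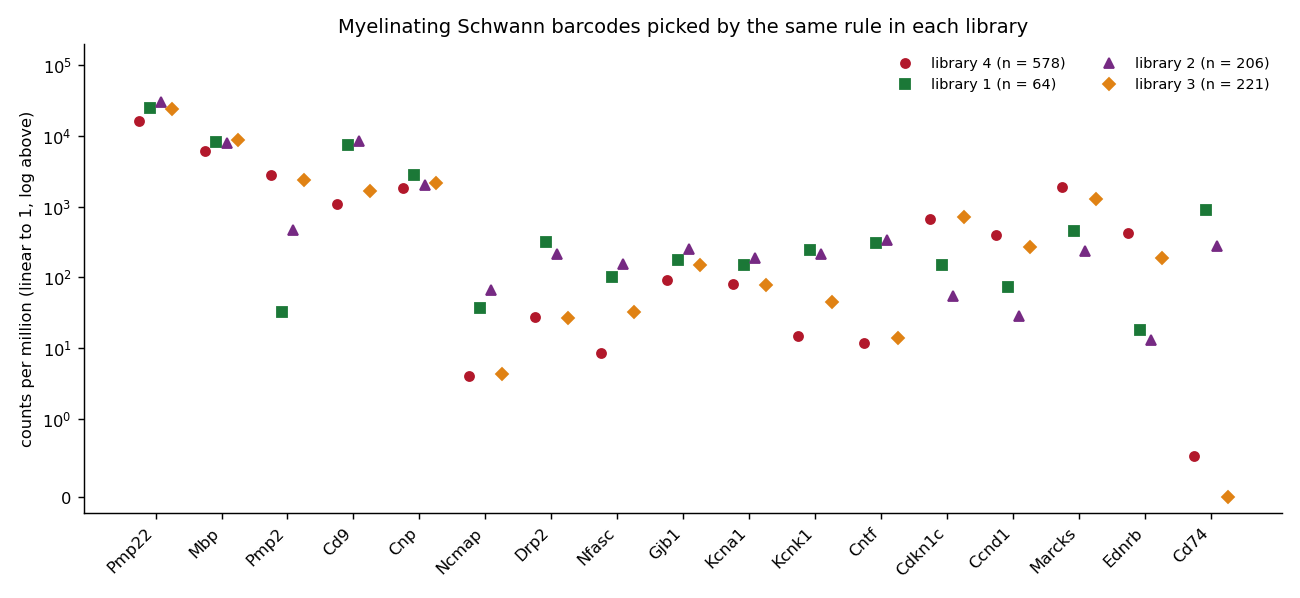
CPM (linear up to 1, logarithmic above) of 17 genes in the barcodes that the same marker rule picked in library 4 (circles, 578 barcodes) and in libraries 1 (squares, 64), 2 (triangles, 206) and 3 (diamonds, 221), each a single library. Drp2, Cntf and Ncmap were low and Cdkn1c and Ednrb were high in libraries 4 and 3 compared with libraries 1 and 2.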

How the data were processed

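The deposited values were raw UMI counts per gene and barcode in 1 matrix of 25399 genes, made with Cell Ranger 3.1.0 per the file headers. Per the submitters' processing notes, CASAVA 1.8, Seurat and the build Rnor_6.0 were used in roles that are not stated. The number that ends a barcode was taken as its library. UMIs were summed per side and expressed as CPM, and each side of a log2 ratio was raised to 3 UMIs where lower. A gene was tested with at least 20 UMIs on 1 side and counted as called past 2-fold with at least 20 UMIs on the higher side. Intervals are exact 95% counting intervals (Clopper-Pearson, also on the split of UMIs between sides). Each group had 1 library, so there are no p-values. Thinning used seed 1. Calculations were tested on simulated counts. Other Schwann-lineage barcodes had at most 1 cell cycle UMI, at least 3 UMIs and 3 per 10000 of Sox10, Erbb3, Cdh19 and S100b, and under 10 per 10000 of Dcn, Pdgfra and Lum. Fibroblast barcodes had at least 3 UMIs and 10 per 10000 of the last 3 genes and at most 1 UMI of the first 4. Of 317 genes in 18 lists, 314 were found (Pou3f1, Sox4 and Gfra1 were not), and of the class markers Pecam1, Hba-a1, Hbb-bs and Dct were not. Genes were named where they belong to the rule or to the 2 myelin lists, were among the 8 largest absolute ratios of another list, or were among the 15 highest or 10 lowest ratios with at least 100 UMIs. Names outside these, such as Csrp2, Lgals3, Sox2, Jun and the genes named across bins or libraries, were chosen after their values were seen. Members and lists were chosen with earlier results of these data known. The tools were matplotlib 3.10.9, pandas 2.3.3, scipy 1.17.1, numpy 2.4.6 and Python 3.11.15. Some genes of the lists are not reported here by name.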

Additional observations from a re-analysis of the deposited data

Results flagged for a closer look

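Outside the filters, 36 barcodes of library 4 met the marker thresholds for Prx, Cldn19, Mag and Gldn, a signal in data that the comparisons did not use. Of these, 10 had fewer than 500 detected genes and 26 had more than 20% mitochondrial UMIs. Their median mitochondrial share was 42.2%, and their median depth was 2020 UMIs.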

How the results depend on the processing

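Of 578 members, 328 remained with at least 6 marker UMIs and 20 per 10000, and 100 with at most 10% mitochondrial UMIs. Against other Schwann-lineage barcodes the 428 higher genes became 259 with a minimum of 100 UMIs and 818 with a minimum of 3 UMIs, where few UMIs in members pass 2-fold against the floor because the sides differ in total. Against the rest the 457 higher genes became 703 with a minimum of 3 UMIs, and the 2734 lower genes became 1756 with barcodes thinned to 3000 UMIs. These counts stayed within 1.5 times of the value given first under the other alternatives run. The median of the secreted factor list turned to 0.26 with a minimum of 3 UMIs. At most 10% mitochondrial UMIs turned Acta2 to 0.22 and Nefm to -0.26. Without members that hold markers of another class, Apod turned to -0.71, Dcn to -0.59 and Pdgfra to -0.65. Without the 5% of members with the most UMIs, an alternative chosen after seeing the data, they turned to -0.56, -0.22 and -0.81. Dcn and Pdgfra helped to choose the members left out by class markers, so their fall there follows in part from that choice. Thinning turned Cd68 to 0.49, Cldn5 to 0.25, Myh11 to 0.32 and Nfatc4 to 0.12, and the mean of per-barcode CPM turned Rrm2 to 0.12. The cause was not tested. No paired analysis was possible because each group had 1 library and no replicate numbers.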
